A study of Mus musculus with 12 samples.

Results

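The lipases are the enzymes that release fatty acids from stored or circulating fat, and 10 genes of that system were followed, the lipases Lpl, Lipc, Lipg, Lipe, Pnpla2, Pnpla3, Mgll and Ces1d and the lipoprotein lipase regulators Angptl4 and Gpihbp1. A probe set, the set of oligonucleotide probes that reads a transcript, was taken for a gene where its annotation held that single symbol. By this rule 9 of the 10 genes had a probe set, 20 of the 45037 probe sets and 9 of the 18193 gene symbols of the array, and Lipc, hepatic lipase, was not analysed here. RNA was from 12 week old female mice of the C57bl/6 strain without the growth hormone secretagogue receptor (GHSR KO), so every group, controls included, lacked the receptor of acylated ghrelin. The mice were killed 6 h after an intraperitoneal injection of saline or of unacylated ghrelin (UAG) at 20 nmol/kg, and gonadal white adipose tissue (WAT), M. vastus lateralis muscle and liver were taken. Each of the 3 tissues had 2 saline and 2 UAG arrays, 12 arrays in all. The sample titles number the injected mice 1 and 2 in each group, and they do not say whether the arrays of different tissues came from the same mice.

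In fat cells, triglyceride is taken apart step by step. Adipose triglyceride lipase (Pnpla2) removes the first fatty acid, hormone-sensitive lipase (Lipe) the next, and monoglyceride lipase (Mgll) the last. Fat carried in blood is split at the capillary wall by lipoprotein lipase (Lpl), which Gpihbp1 carries across the endothelial cell and holds there and which Angptl4 inactivates. Endothelial lipase (Lipg) acts on the phospholipids of high density lipoproteins. The carboxylesterase Ces1d hydrolyses triglyceride in liver and fat, and Pnpla3 is a relative of Pnpla2 that sits on lipid droplets and is induced with the enzymes of fatty acid synthesis.

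Levels are given as intensities, the deposited log2 values returned to a linear scale, of the brightest probe set of a gene, with the 2 saline arrays before the 2 UAG arrays. An intensity is set only against the same probe set on other arrays. The study's methods applied an intensity threshold of 30, which is taken as the lower limit here. Within a tissue, WAT arrays correlated with each other over all probe sets at 0.951 to 0.962, muscle arrays at 0.938 to 0.951 and liver arrays at 0.925 to 0.946. Some arrays stood apart in their markers. The 5 measured of 7 adipocyte markers summed to 27162 and 39502 on the muscle saline arrays and to 29914 and 33880 on the muscle UAG arrays, against 40522 to 47906 on the WAT arrays and 369 to 460 on the liver arrays, and Adipoq, the fat cell hormone adiponectin, was at 4.66 to 17.4 in liver. Most of the sum in muscle came from Fabp4 and Adipoq, while Retn was at 3262 to 6877 in muscle and 9885 to 11166 in WAT and Lep at 172 to 626 in muscle and 392 to 3283 in WAT. The muscle samples thus carried fat cell transcripts, beside the 7 skeletal muscle fibre markers with sums of 101282 to 106947. The brown fat markers summed to 22146 and 18409 on the muscle saline arrays and to 19506 and 14531 on the muscle UAG arrays. Of these, Ucp1 was at 3713 and 3348 after saline and at 2558 and 1043 after UAG. Cox8b, the brightest of them in muscle, overlapped, at 10123 and 8558 after saline and at 10590 and 8051 after UAG. On every muscle array Cox8b and Cox7a1 were above all WAT arrays, with Cox7a1 at 3128 to 3783 in muscle and 94.7 to 1083 in WAT. The part of the muscle fibres themselves in the brown fat sum of muscle was not tested. WAT saline 1 had the highest brown fat sum of the WAT arrays, 20021 against 1966 to 4076, with 6 of 7 markers measured. It also had the highest skeletal muscle fibre sum of the WAT arrays, 3829 against 870 to 1586. WAT saline 2 had the highest smooth muscle sum, 29743 against 5813 to 6638 for 5 markers. The 5 neutrophil markers summed to 7003 on muscle UAG 2 and to 111 to 651 on the other 11 arrays. In bulk tissue fewer cells of a type and less RNA per cell cannot be told apart.

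For 4 of the measured members RefSeq promoter windows were at hand, and a window is shown for each because Pnpla2, Lipe and Mgll were all higher on both UAG arrays of WAT and Pnpla3 was not. Each window holds the 250 bases before a transcript start in build GRCm38.p6, on the strand of the gene, at chr7:141454938-141455187 (+) for Pnpla2, chr7:25390113-25390362 (-) for Lipe, chr6:88724162-88724411 (+) for Mgll and chr15:84167566-84167815 (+) for Pnpla3. Capitals mark matches on either strand to the motifs described after the sequences.
Pnpla2: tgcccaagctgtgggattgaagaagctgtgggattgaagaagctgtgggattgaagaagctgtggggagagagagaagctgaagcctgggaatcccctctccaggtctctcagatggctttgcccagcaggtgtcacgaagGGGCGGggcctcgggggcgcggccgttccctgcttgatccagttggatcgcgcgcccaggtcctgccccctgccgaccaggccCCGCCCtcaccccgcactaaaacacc
Lipe: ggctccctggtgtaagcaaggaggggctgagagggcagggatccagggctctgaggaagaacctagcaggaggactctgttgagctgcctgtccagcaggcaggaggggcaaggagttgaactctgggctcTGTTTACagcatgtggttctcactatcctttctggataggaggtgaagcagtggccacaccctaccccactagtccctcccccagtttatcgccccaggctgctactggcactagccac
Mgll: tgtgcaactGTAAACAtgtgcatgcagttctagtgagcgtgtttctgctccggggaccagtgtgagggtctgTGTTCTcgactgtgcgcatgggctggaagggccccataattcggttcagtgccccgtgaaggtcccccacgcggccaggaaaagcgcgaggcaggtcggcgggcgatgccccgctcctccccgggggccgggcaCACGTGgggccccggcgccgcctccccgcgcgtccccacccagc
Pnpla3: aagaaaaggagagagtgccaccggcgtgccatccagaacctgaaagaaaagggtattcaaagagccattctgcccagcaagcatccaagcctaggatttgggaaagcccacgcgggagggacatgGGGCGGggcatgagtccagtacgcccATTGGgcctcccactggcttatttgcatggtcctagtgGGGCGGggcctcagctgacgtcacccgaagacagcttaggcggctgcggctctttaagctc

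Of 8 motifs searched, the FoxO site GTAAACA lay in the Lipe window, 119 to 113 bases before the start, and in the Mgll window, 241 to 235 bases before it. This motif was in 3.17% of all 32851 windows of the same length. The Mgll window also held the E-box CACGTG, found in 6.02% of windows, and the glucocorticoid receptor core AGAACA, found in 16.1%. The GC box GGGCGG, in 32.7% of windows, was matched at 2 places in the Pnpla2 window and at 2 in the Pnpla3 window, which also held a CCAAT box, CCAAT, as 33.8% of windows did. None of these 4 windows held the PPAR response element (0.0335% of windows), the TATA box TATAAA (12.4%) or the sterol response element TCACCCCAC (0.496%). A second start of Lipe held 6 GC boxes, some overlapping, and an E-box, and a second start of Mgll held 1 GC box. A match describes the letters of the window and is no evidence of binding.

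Most of the members had their highest mean level in WAT. Levels of 7 of 9 members were higher in WAT than in muscle (limma, adjusted p under 0.05), and 31.6% of all 12594 genes tested were, with 22.3% lower and no member lower. Against liver, 8 of 9 were higher in WAT, where 36% of all genes were, and Lipg was lower, as were 26.3%. Muscle was above liver for 5 of 9 members, where 35.8% of all genes were, and below it for Lipg, Ces1d and Angptl4, where 30.4% were. Lipg is counted in both comparisons with muscle, where its level lay around the lower limit. These calls compare tissues over saline and UAG arrays together, in a fit that takes the tissues as independent. With the saline arrays alone, the calls fell to 4 of 9 between WAT and muscle, to 7 of 9 between WAT and liver, where Ces1d and Angptl4 no longer passed, and to 4 of 9 between muscle and liver, on 6 arrays in place of 12.

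**Figure D1:**
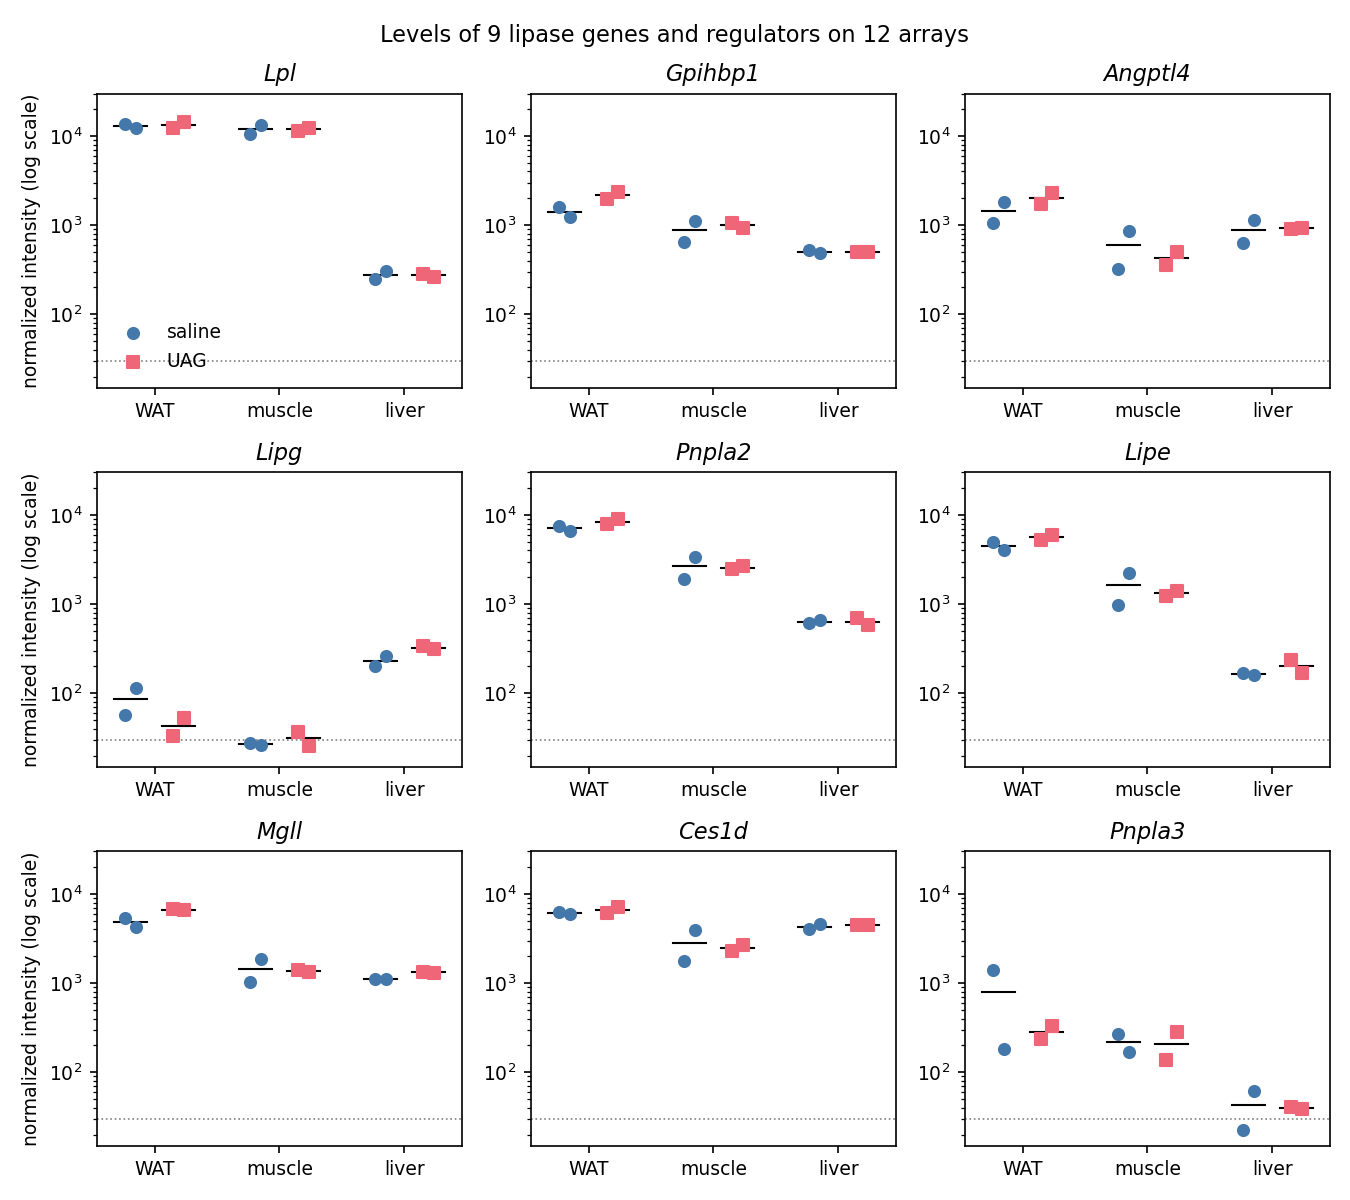
Normalized intensity (log scale) of the 9 measured genes on each of the 12 arrays, by tissue, with circles for saline, squares for UAG, a black line at the mean of the 2 arrays and a dotted line at 30. Lpl was at 10539 or more on every WAT and muscle array and at 303 or less in liver, Lipg had its highest levels in liver, and 1 WAT saline array at 1389 set the high saline mean of Pnpla3.

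Lpl was among the brightest probe sets of WAT and muscle. It was at 13785 and 12174 in WAT after saline and at 12238 and 14478 after UAG. In muscle it was at 10539 and 13252 after saline and at 11338 and 12366 after UAG. At most 0.0888% of probe sets were brighter on any of these 8 arrays, whose highest intensity was 18498, so that Lpl lay near the top of the scale there. In liver it was at 250 and 303 after saline and at 286 and 265 after UAG. The saline and UAG arrays overlapped in all 3 tissues. By this probe set the level in WAT was 47.7-fold that in liver and the level in muscle 43.0-fold, while WAT and muscle differed by 0.15 ± 0.12 on the log2 scale (SE, adjusted p = 0.322 in limma). The second probe set, which was less bright, ranged over 6640 to 8894 in WAT and 2406 to 5734 in muscle, with a mean of 61.8 in liver, so that WAT and muscle did not overlap there and the gap to liver was wider. The genes most like Lpl across the 12 arrays by the Pearson correlation of log2 levels were Man2a2, a Golgi mannosidase, with 0.998, Fabp4, the fatty acid carrier of fat cells, with 0.997, and Adipoq, with 0.996. These correlations rest mainly on the gap between tissues, and the 12 points share those tissues.

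Gpihbp1, the capillary anchor of lipoprotein lipase, had its highest level in WAT and its lowest in liver. It was at 1609 and 1221 in WAT after saline and at 1968 and 2339 after UAG, so that both UAG arrays were above both saline arrays. In muscle it was at 651 and 1109 after saline and 1058 and 925 after UAG, which overlapped. In liver it was at 523 and 484 after saline and at 500 on both UAG arrays. The level in WAT was 1.89-fold that in muscle and 3.46-fold that in liver (limma, adjusted p = 0.00078 and 3.2e-06). The gene most like it was Pde2a, a phosphodiesterase, with a correlation of 0.988 over the 12 arrays.

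Angptl4, the inhibitor of lipoprotein lipase, varied more than Lpl between the saline arrays of each tissue. It was at 1056 and 1795 in WAT after saline and at 1742 and 2289 after UAG. In muscle it was at 319 and 865 after saline and at 361 and 500 after UAG, and in liver at 635 and 1139 after saline and at 915 and 920 after UAG. The groups overlapped in each tissue. Muscle saline 2 had 2.71 times the level of muscle saline 1, the widest such gap of the members in muscle. WAT was above muscle 3.51-fold (adjusted p = 0.00059) and above liver 1.88-fold (adjusted p = 0.0243), and the latter call was lost when any of 5 arrays was left out, WAT saline 2, WAT UAG 2, liver saline 1 or either liver UAG array, with adjusted p-values of up to 0.0984. Liver was above muscle 1.87-fold (adjusted p = 0.0236), and this call too was lost without any of 5 arrays (muscle saline 1, muscle UAG 1, liver saline 2 or either liver UAG array).

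Lipg, endothelial lipase, was highest in liver. It was at 203 and 259 in liver after saline and at 339 and 311 after UAG, with both UAG arrays above both saline arrays. In WAT it was at 57.4 and 115 after saline and at 33.3 and 52.1 after UAG, with both UAG arrays below both saline arrays. In muscle it was at 25.7 to 36.7, around the lower limit of 30, and its mean there was too low for the test of UAG. The level in liver was 4.69-fold that in WAT (limma, adjusted p = 2.0e-05), and no fold is given against muscle. A second probe set gave 168 to 223 in liver, 19.7 to 81.7 in WAT and at most 9.73 in muscle, and the other probe set was at 44.3 or less on every array.

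The enzymes of the lipolysis of stored fat, Pnpla2, Lipe and Mgll, were highest in WAT on every array of that tissue. Pnpla2 was at 7570 and 6564 in WAT after saline and at 7985 and 8928 after UAG. In muscle Pnpla2 was at 1932 and 3424 after saline and at 2487 and 2659 after UAG, and in liver at 607, 658, 695 and 580 in the same order. Its level in WAT was higher than in muscle by 1.58 ± 0.16 on the log2 scale (SE) and 12.2-fold that in liver. Neither muscle nor liver showed saline and UAG arrays apart for Pnpla2, and WAT did, with both UAG arrays above.

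Lipe was at 4969 and 4048 in WAT after saline and at 5311 and 5891 after UAG, again with both UAG arrays above. In muscle Lipe was at 977 and 2260 after saline and at 1247 and 1417 after UAG, so that the UAG arrays lay between the saline arrays. In liver it was at 167 and 160 after saline and at 238 and 170 after UAG. WAT was above muscle 3.56-fold and above liver 27.6-fold, the widest gap to liver after that of Lpl. The gene most like Lipe was Slc27a1, a fatty acid transporter, and the gene most like Pnpla2 was Tmem43, a membrane protein, with correlations of 0.997 and 0.996.

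Mgll was at 5447 and 4266 in WAT after saline and at 6828 and 6533 after UAG. In liver Mgll was at 1114 and 1101 after saline and at 1341 and 1296 after UAG. Both UAG arrays were above both saline arrays in WAT and in liver. In muscle it was at 1024 and 1850 after saline and at 1406 and 1343 after UAG, with the UAG arrays between the saline arrays. WAT was above muscle 4.13-fold and above liver 4.70-fold, while muscle and liver differed by 0.19 ± 0.16 on the log2 scale (SE, adjusted p = 0.339), a difference that turned to -0.026 without muscle saline 2 and passed the test at 0.40 (adjusted p = 0.0091) without muscle saline 1.

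Ces1d had high levels in WAT and liver. It was at 6325 and 5895 in WAT after saline and at 6185 and 7134 after UAG. In liver Ces1d was at 4040 and 4560 after saline and at 4502 and 4479 after UAG, and in muscle at 1769 and 3914 after saline and at 2296 and 2680 after UAG. The groups overlapped in all 3 tissues. WAT was above muscle 2.49-fold (adjusted p = 0.00031) and liver above muscle 1.72-fold (adjusted p = 0.0058). WAT was above liver 1.45-fold (adjusted p = 0.0395), which passed the test without muscle saline 1 or muscle saline 2 and missed it without any other array, with adjusted p-values of up to 0.112. Its dimmest probe set did not follow the first in WAT, at 636 and 2562 after saline and at 776 and 565 after UAG.

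Pnpla3 was at 1389 and 183 in WAT after saline and at 234 and 330 after UAG. In muscle it was at 270 and 170 after saline and at 138 and 280 after UAG. In liver Pnpla3 was dim, at 22.6 and 62.2 after saline and at 40.4 and 38.9 after UAG. A single array, WAT saline 1, was 7.58 times the other saline array of WAT, and all groups overlapped. WAT was above liver by 3.28 ± 0.55 on the log2 scale (SE, adjusted p = 0.00037), which was 2.55 without WAT saline 1 and 4.01 without WAT saline 2. It was not above muscle by the test (1.82-fold, adjusted p = 0.22), though it was without WAT saline 2 (adjusted p = 0.0056).

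**Figure D2:**
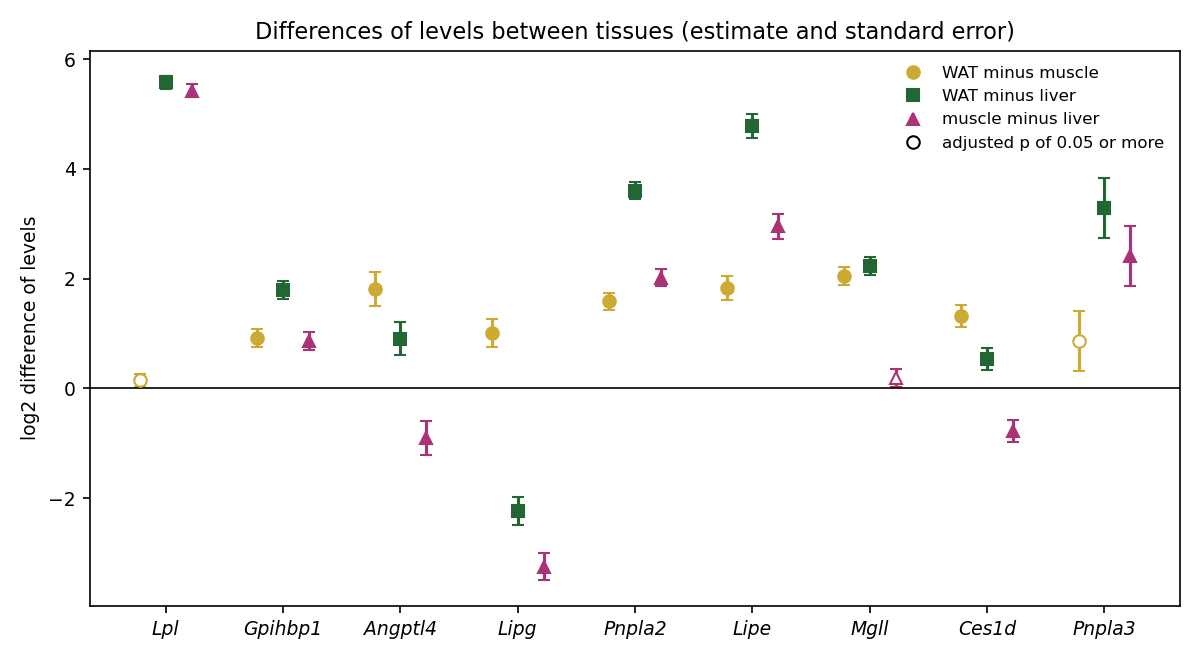
Log2 differences of levels between tissues for the 9 genes, with the standard error of limma over the 12 arrays and open symbols for an adjusted p of 0.05 or more. WAT minus liver ran from -2.23 for Lipg to 5.58 for Lpl, and Lipg alone was lower in WAT than in liver.

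UAG against saline was the comparison the study was made for, since these mice lack the receptor of acylated ghrelin. In WAT, both UAG arrays were above both saline arrays for 4 of the 9 members, Pnpla2, Lipe, Mgll and Gpihbp1, and 24% of all 11981 genes behaved so. Lipg alone was lower on both UAG arrays, as were 14.3% of genes. The log2 difference, UAG minus saline, was 0.61 ± 0.20 for Gpihbp1, 0.47 ± 0.19 for Mgll, 0.32 ± 0.18 for Lipe and 0.26 ± 0.17 for Pnpla2 (SE, n = 2 arrays a group). These are increases of 53.1, 38.6, 24.7 and 19.8%. None of the 4 passed the test. All 4 were lowest on WAT saline 2, the array with the highest smooth muscle sum and, at 40522, the lowest adipocyte sum of WAT, whose part in these differences was not tested. limma called none of the 9 members in WAT (smallest adjusted p = 0.682) and 0% of the 25307 probe sets tested, and at an unadjusted p under 0.05 it had 2 members higher, Gpihbp1 and Mgll, and none lower, with 4.28% of probe sets higher and 2.45% lower.

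Other probe sets bore on these values. The other bright probe sets of Mgll were also higher on both UAG arrays of WAT, by 0.50 ± 0.19 and 0.66 ± 0.17 on the log2 scale, and so was the second of Pnpla2, by 0.58 ± 0.21. The second probe set of Lpl was higher by 0.33 ± 0.16 in WAT, with 7443 and 6640 after saline and 8824 and 8894 after UAG, where the brighter one differed by 0.04 ± 0.18. The other probe set of Lipe was below 30 on all WAT arrays. By quantitative PCR in other mice, the study reported the mRNAs of hormone-sensitive lipase and lipoprotein lipase as significantly increased in WAT after UAG. Gpihbp1 is made by capillary endothelial cells. The 7 endothelial markers summed to 2730 and 2233 on the saline arrays and 2787 and 2831 on the UAG arrays of WAT, so that UAG 1 was only slightly above saline 1. Cdh5, Kdr, Tie1 and Egfl7 were higher on both UAG arrays than on both saline arrays, and Pecam1, Tek and Emcn overlapped. The part of these markers in the difference of Gpihbp1 was not tested.

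The study's methods took a 2-fold ratio of mean intensities and a threshold of 30. With values below 30 set to 30, a choice made here, the members Lipg (0.495) and Pnpla3 (0.359) were 2-fold lower in WAT, as were 1.95% of genes. None was 2-fold higher, where 0.509% of genes were. The log2 differences were -0.97 ± 0.41 for Lipg and -0.86 ± 0.88 for Pnpla3 (SE). The second probe set of Lipg was also lower on both UAG arrays, with 45.1 and 81.7 after saline and 19.7 and 23.9 after UAG. From its array data the study too reported Lipg as suppressed more than 2-fold in WAT. The ratio of Lipg was 0.744 without WAT saline 2 and 0.929 with a floor of 100. The ratio of Pnpla3 was 1.54 without WAT saline 1. Ratios of geometric means left neither member past 2-fold.

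The calls in WAT turned on the saline arrays. Without WAT saline 1, limma called Gpihbp1 and Mgll higher (log2 differences of 0.81 and 0.65) and Lipg lower (-1.47), and 6.52% of all probe sets. Without WAT saline 2, it called Angptl4 higher (0.92) and Pnpla3 lower (-2.32), and 5.04% of all probe sets. With either UAG array left out it called no member and no probe set. In these fits the lone saline array is assumed to vary as the UAG arrays do. Mgll, Lipe, Pnpla2 and Gpihbp1 were higher after UAG against either saline array, by 0.29 to 0.65, 0.17 to 0.47, 0.16 to 0.36 and 0.41 to 0.81. The direction follows from both UAG arrays being above both saline arrays for these genes and is no further support.

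**Figure D3:**
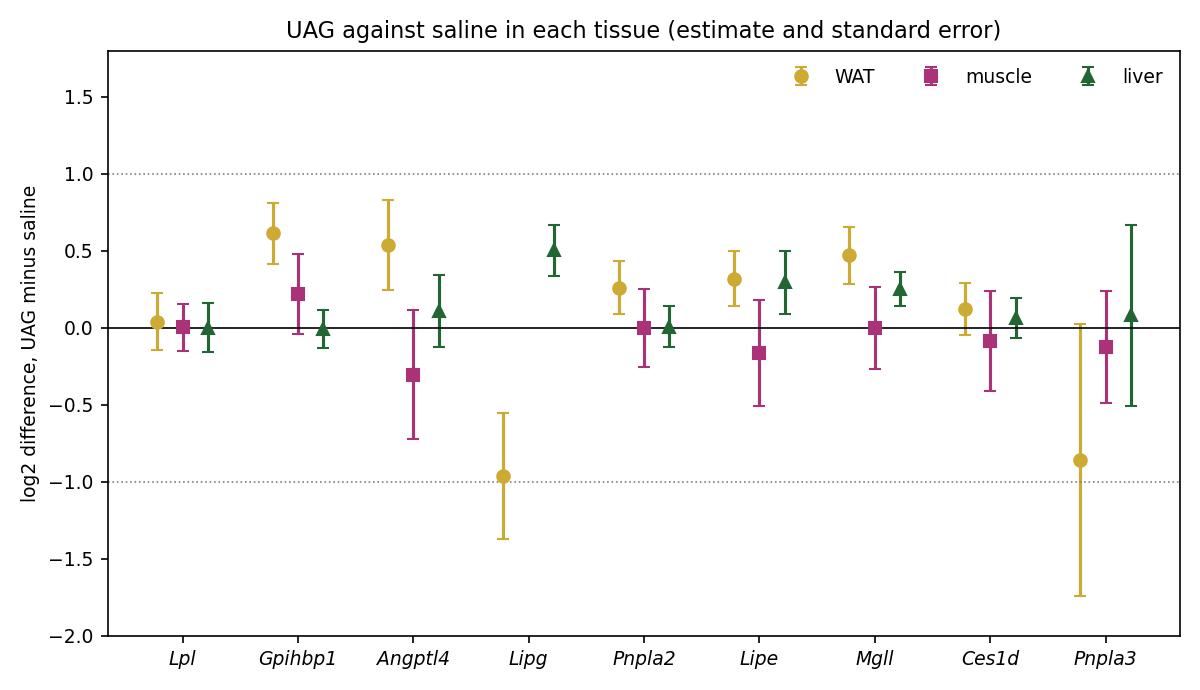
Log2 difference, UAG minus saline, of the 9 genes in each tissue with the standard error of limma, and dotted lines at a 2-fold change. WAT differences of Gpihbp1, Angptl4 and Mgll were between 0.47 and 0.61, muscle differences lay between -0.31 and 0.22, and Lipg, not tested in muscle, was at -0.97 in WAT and 0.50 in liver.

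The WAT arrays also differed in genes that Pnpla3 is known to be induced with. Of the lipogenic genes, Elovl6, a fatty acid elongase, was at 6899 and 1634 after saline and at 1038 and 1039 after UAG, and Me1, the malic enzyme that makes NADPH, at 12549 and 5677 after saline and at 3706 and 4723 after UAG. Both were highest on WAT saline 1, as Pnpla3 was, and so was Ucp1, the uncoupling protein of brown fat, at 6772 against 702 on the other saline array. Angptl8, a partner of the angiopoietin-like inhibitors of lipoprotein lipase that was picked after its values were seen, was at 438 and 108 after saline and at 111 and 202 after UAG. Of the 9 lipogenic genes tested in WAT, 8 were highest on WAT saline 1, as Pnpla3 and Angptl8 were, and Scd1 was highest on WAT UAG 2. Pnpla3, Angptl8, Srebf1, Mlxipl and Thrsp were lowest on WAT saline 2, and the other 6 lipogenic genes on WAT UAG 1. WAT saline 1 also had the highest skeletal muscle fibre sum of the WAT arrays, 3829. The part of its brown fat and muscle fibre markers in its level of Pnpla3 was not tested.

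**Figure D4:**
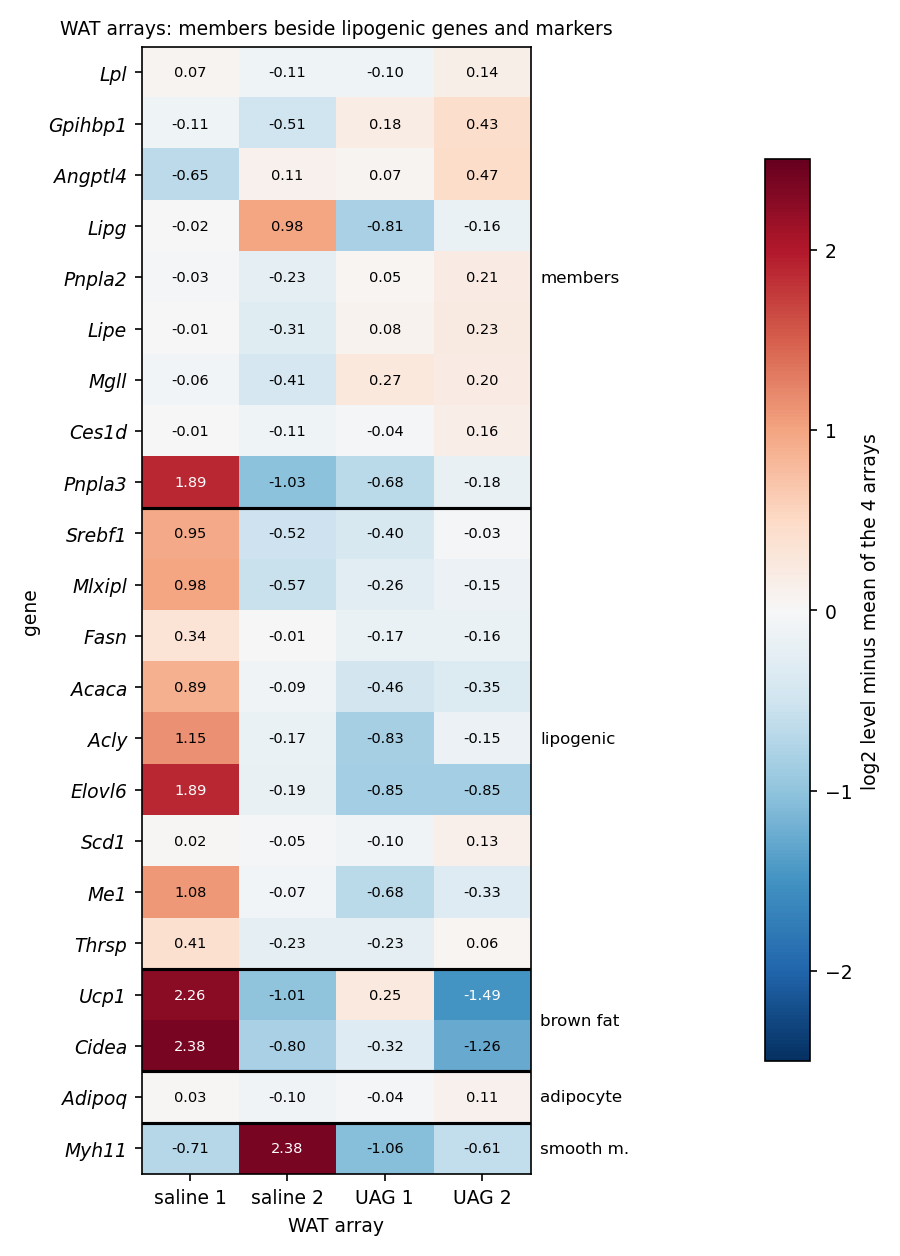
Log2 level of each gene on the 4 WAT arrays minus its mean over them, for the 9 members, 9 lipogenic genes and 4 markers chosen after their values were seen. Pnpla3 stood at 1.89 on saline 1, beside 1.89 for Elovl6 and 2.26 for Ucp1, while Pnpla2, Lipe, Mgll and Gpihbp1 were above 0 on both UAG arrays and below 0 on both saline arrays.

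In muscle, no member had its saline and UAG arrays apart, where 11.9% of genes were higher and 9.83% lower on both UAG arrays, and none changed 2-fold, where 0.639% of genes did. The log2 differences of the 8 members tested had a median of -0.04, with -0.31 ± 0.42 for Angptl4 as the lowest and 0.22 ± 0.26 for Gpihbp1 as the highest (SE). limma called 0 of these 8 (adjusted p = 1.00 for each after rounding) and 0% of the 25105 probe sets tested, and none of the 8 had an unadjusted p under 0.05, which 1.03% of probe sets had in the higher and 0.777% in the lower direction.

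The saline arrays of muscle set these values. Muscle saline 2 was the highest of the 4 arrays for 7 of the 8 members tested, Pnpla3 being the exception, and muscle saline 1 was the lowest for the same 7. Of all 11894 genes, 28.1% were highest on muscle saline 2. The ratio of saline 2 to saline 1 was 2.31 for Lipe, 2.21 for Ces1d, 1.81 for Mgll, 1.77 for Pnpla2, 1.70 for Gpihbp1 and 1.26 for Lpl. It was 2.11 for Retn, the fat cell hormone resistin, 1.56 for Adipoq and 1.36 for Fabp4, and these 3 of the 5 adipocyte markers measured had the same order over the 4 arrays as Lpl, Pnpla2, Lipe, Ces1d and Angptl4, with saline 2 first, then UAG 2, UAG 1 and saline 1. The other 2 did not, as the ratio was 0.978 for Lep and 0.879 for Slc2a4, the glucose transporter that muscle fibres also make, and both were lowest on saline 2. For Ckm, Mylpf and Actn3, genes of the muscle fibre, the ratio was 0.986, 0.897 and 0.952. The part of fat cell RNA in the levels of the members was not tested.

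Without muscle saline 1, limma called Angptl4 (-1.03) and Lipe (-0.77) lower after UAG, and 0.935% of all probe sets, and Angptl4 was 2-fold lower with a ratio of 0.498. Without muscle saline 2, the log2 differences of the same genes were 0.41 and 0.44, and no member was called, where 1.42% of probe sets were. The direction of UAG against saline in muscle turned in this way, negative against saline 2 and positive against saline 1, for Lpl, Pnpla2, Lipe, Mgll, Ces1d, Angptl4 and Gpihbp1.

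**Figure D5:**
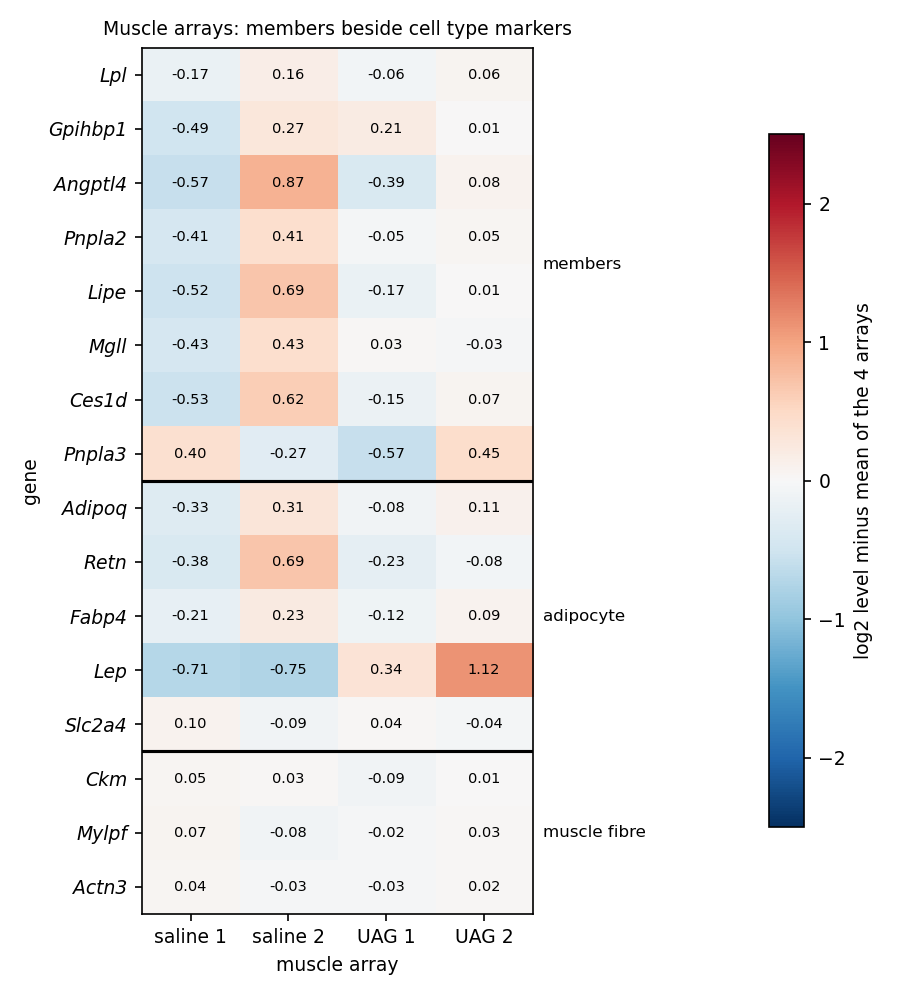
Log2 level of each gene on the 4 muscle arrays minus its mean over them, for the 8 members tested, the 5 adipocyte markers measured and 3 of 7 muscle fibre markers. Saline 1 was lowest and saline 2 highest for 7 members and for Adipoq, Retn and Fabp4, saline 2 was lowest for Lep and Slc2a4, and Ckm, Mylpf and Actn3 lay between -0.09 and 0.07.

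In liver, both UAG arrays were above both saline arrays for 3 of the 9 members, Lipg, Lipe and Mgll, as for 15.3% of genes, and for none were they below, as for 14.5%. The log2 differences were 0.50 ± 0.17 for Lipg, 0.30 ± 0.20 for Lipe and 0.25 ± 0.11 for Mgll (SE). Pnpla2, Gpihbp1 and Lpl differed by 0.01 or less in size. limma called none of the 9 (adjusted p = 1.00 for each after rounding) and 0.00397% of the 25160 probe sets tested, and at an unadjusted p under 0.05 it had 1 member higher, Lipg, and none lower, with 1.86% of probe sets higher and 1.65% lower. No member changed 2-fold, where 0.608% of genes did. Leaving out each array in turn gave 0.33 to 0.68 for Lipg, 0.23 to 0.28 for Mgll and 0.05 to 0.54 for Lipe. The other bright probe sets of Mgll were also higher on both UAG arrays of liver, by 0.18 ± 0.11 and 0.27 ± 0.13, and so was the second of Lipg, by 0.32 ± 0.16. The hepatocyte markers summed to 98560 and 101397 after saline and to 99969 and 137425 after UAG. On liver UAG 2, the array with the sum of 137425, the highest intensity of any probe set was 25724, against 18498 on the other liver arrays. The top of its scale thus differed. The ratio of the 3′ to the 5′ control probe set of Actb was 1.70 and 1.78 after saline and 1.94 and 2.35 after UAG. The part of these array traits in the differences of the members was not tested.

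The UAG differences were set against each other between tissues for the 9 members and 3 pairs of tissues. None of the 27 passed the limma test. In WAT minus liver, 0.0113% of probe sets did, and in the other pairs 0%. At an unadjusted p under 0.05 Lipg differed in WAT minus liver (-1.47 ± 0.51, adjusted p = 0.947), where 4.66% of probe sets did. No other member did in any pair, where 3.16% of probe sets did in WAT minus muscle and 3.13% in muscle minus liver. Lipg passed this unadjusted threshold in WAT minus muscle too. Its differences with muscle are not given, as its level there lay around the lower limit. For Gpihbp1, WAT minus liver was 0.62 ± 0.32 (adjusted p = 0.998).

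The proteins that act with the lipases were read from lists of partners and controls. Of the partners of lipoprotein lipase, 13, 12 and 14 were tested in WAT, muscle and liver. limma called none, and their median log2 difference was 0.02 in WAT, 0.06 in muscle and 0.09 in liver, beside 0.03, 0.01 and 0.01 over all genes. In WAT, Sdc1, a heparan sulfate proteoglycan that binds lipoproteins, was at 252 and 279 after saline and at 148 and 113 after UAG, and Apoc3, the apolipoprotein that slows lipoprotein lipase, at 136 and 102 after saline and at 47.4 and 76.0 after UAG. Apoc1 was lower on both UAG arrays in WAT and in muscle, at 1286 and 588 against 491 and 528 in WAT. In liver, Vldlr, a lipoprotein receptor, was at 94.3 and 121 after saline and at 153 and 231 after UAG, and Cd36, a fatty acid carrier, at 642 and 1011 after saline and at 1024 and 1308 after UAG.

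Of the partners of intracellular lipolysis, 11, 11 and 10 were tested in the same order. None was called, and the median log2 difference was 0.14 in WAT, -0.03 in muscle and 0.15 in liver. G0s2, the protein inhibitor of Pnpla2, was at 2217 and 1431 in WAT after saline and at 2833 and 3196 after UAG. In liver G0s2 was at 801 and 791 after saline and at 1594 and 1193 after UAG. The inhibitor was thus above both saline arrays after UAG in WAT, as its enzyme was, and in liver, where its enzyme was not, by 0.76 ± 0.24 and 0.79 ± 0.15 on the log2 scale (SE, adjusted p = 0.676 and 0.689 in limma). Plin4, a coat protein of lipid droplets, was at 5409 and 6219 in WAT after saline and at 8685 and 8509 after UAG. Plin2, another coat protein, was at 1947 and 2230 in muscle after saline and at 1516 and 1352 after UAG.

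Of genes in the hormonal control of lipolysis, 17, 16 and 13 were tested, and none was called. Both UAG arrays were above both saline arrays for 8, 2 and 1 of them in WAT, muscle and liver, beside 24, 11.9 and 15.3% of all genes, and below for 1 in each, beside 14.3, 9.83 and 14.5%. Npr3, the clearance receptor of natriuretic peptides, was at 1317 and 836 in WAT after saline and at 3492 and 3046 after UAG, a 3.04-fold ratio, and at 163 and 309 in muscle after saline and at 322 and 514 after UAG. Gnai1, an inhibitory G protein, was at 3359 and 3534 in WAT after saline and at 5505 and 5275 after UAG. In muscle Irs1, an adaptor of the insulin receptor, was at 1967 and 1816 after saline and at 1400 and 1010 after UAG.

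The other lipases and esterases had medians of 0.05 in WAT, -0.11 in muscle and -0.04 in liver over 12, 12 and 18 genes tested, with no call. Both UAG arrays were above for 2, 0 and 2 of them and below for 2, 3 and 5, beside the shares of all genes just given. Pnpla7, a lysophospholipase, was at 225 and 252 in WAT after saline and at 343 and 328 after UAG, and Ces2a, a carboxylesterase, at 2825 and 2854 in liver after saline and at 2316 and 2045 after UAG. Medians over the targets of PPAR, the nuclear receptors that induce Angptl4, were -0.18 in WAT, -0.09 in muscle and 0.13 in liver over 11, 11 and 12 genes. Targets of the glucocorticoid receptor, which also induces Angptl4, had medians of 0.91, 0.36 and 0.66 over 9 genes in each tissue. Both UAG arrays were above for 7, 6 and 6 of the 9, beside 24, 11.9 and 15.3% of all genes, and none was called by limma. This list was chosen with earlier results of these data known. The study had already reported Fkbp5, Cebpd and Zbtb16 as regulated by UAG. The counts are therefore no test of enrichment, and the part of the receptor in the levels of Angptl4 was not tested. Directions were not always shared with the study's quantitative PCR in other mice. There Cebpd was lower after UAG in WAT and muscle, where these arrays gave log2 differences of 1.17 and 1.28. In WAT Tsc22d3, a glucocorticoid-induced leucine zipper protein, was at 865 and 705 after saline and at 1521 and 2353 after UAG. The lipogenic genes had medians of -0.43, -0.53 and -0.26 over 9, 10 and 10 genes, with both UAG arrays below for 4, 8 and 1, beside 14.3, 9.83 and 14.5% of all genes. In muscle Elovl6 was at 2352 and 1726 after saline and at 691 and 1223 after UAG. The lipogenic list too was chosen with earlier results known, and its counts are no test of enrichment. The study had already reported Acaca, Acly and Elovl6 as regulated by UAG. Its PCR had Acaca higher in muscle after UAG, where these arrays gave a log2 difference of -0.79.

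Among transcription factors known to act on lipase genes, Foxo1, which drives Pnpla2 when insulin is low, was at 555 and 681 in WAT after saline and at 802 and 898 after UAG, and at 318 and 335 in liver after saline and at 504 and 378 after UAG. Both UAG arrays were above both saline arrays in both tissues, by 0.47 ± 0.17 and 0.42 ± 0.16 on the log2 scale, and neither passed the test. Other factors differed more. In WAT Ppargc1a was at 120 and 46.7 after saline and at 32.8 and 50.2 after UAG, which overlapped, with a ratio of 0.496. Rxra differed by 0.48 ± 0.19 in WAT, and Pparg and Cebpb by 0.49 ± 0.34 and 0.46 ± 0.19 in liver. None of these passed the test. Of the 11 factors tested, both UAG arrays were above for 5 in WAT, 2 in muscle and 3 in liver, beside 24, 11.9 and 15.3% of all genes, and below for 2, 1 and 1, beside 14.3, 9.83 and 14.5%.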

How the data were processed

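RNA of 3 tissues was hybridized to 12 Affymetrix mouse arrays, 2 per tissue and treatment. The authors deposited log2 values of 45037 probe sets and 64 controls. MAS5 stands in the submitters' processing notes with no version. Per the study's methods the arrays were quantile normalized, with an intensity threshold of 30 and 2-fold ratios of mean intensities. In the ratios given here, values below 30 were set to 30. The number of arrays limits the precision. Probe sets were named through the array annotation, with symbols updated through RefSeq: 34945 named 1 gene, 932 several and 9160 none. The probe set with the highest mean intensity stood for a gene, and all probe sets of the members were read.

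Each tissue was modelled alone in limma 3.58.1 (R 4.3.3) on the log2 scale with an intensity trend, using probe sets whose intensities averaged at least 30, and all 12 arrays were modelled together for tissue levels and for differences of UAG effects. The Benjamini-Hochberg adjustment ran over all probe sets tested. Fits were checked on simulated data. Lists were described by counts and medians. Named were all members and, per list and tissue, up to 3 genes with the largest log2 difference. Angptl8, Srebf1, Mlxipl and the markers set beside a result were named after their values were seen. Members and lists were chosen with earlier results of these data known. Promoter windows were read from RefSeq (GRCm38.p6). Lpl, Lipg, Ces1d, Angptl4 and Gpihbp1 had no window in the table used.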

Additional observations from a re-analysis of the deposited data

How the results depend on the processing

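Alternatives were other floors, means, normalizations, probe set rules, filters on dim probe sets, variance models and a replicate block, and each array was left out in turn. With a floor of 100, ratios of geometric means or averages over all of a gene's probe sets, 1, 0 and 1 members changed 2-fold in WAT in place of 2. Leaving out an array gave 1 to 2 there and 0 to 1 in muscle, and limma called 0 to 3 members in WAT and 0 to 2 in muscle. In liver both counts stayed at 0, as did the count of differences of UAG effects between tissues. With saline arrays alone, 4 members passed in WAT minus muscle and 4 in muscle minus liver, in place of 7 and 8, on fewer samples.

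The deviations of arrays with the same replicate number correlated between -0.14 and 0.12. Saline and UAG arrays came from different mice, as in the pair at -0.14, WAT saline 1 and WAT UAG 1. With so few arrays a group, these correlations cannot decide whether arrays of the same treatment and number came from the same mouse. The labels do not say so either. With the number as a replicate block, limma called 0 members in each tissue and 7, 9 and 8 in WAT minus muscle, WAT minus liver and muscle minus liver, the same counts as without it. Within a tissue this block joined saline and UAG arrays of different mice, so it is no check of pairing there.

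Some signs turned. Averaging a gene's probe sets, the log2 difference was -0.22 for Lipe and -0.13 for Ces1d in WAT, -0.094 for Lpl and 0.0056 for Ces1d in muscle, and -0.12 for Pnpla2 in liver. Such an average weighs dim probe sets like bright ones. For Lipe in WAT it took in a probe set at 7.82 to 19.2, with a difference of -0.77. For Pnpla2 in liver it took in a probe set at 7.73 to 21.9, with -0.25, and both lay below 30 on those arrays. For Ces1d in WAT its dimmest probe set gave -0.95. Quantile normalization within the tissue and over all arrays gave -0.016 and -0.0086 for Lpl and 0.0054 and 0.014 for Pnpla2 in muscle. Scaling to the 75th percentile gave -2.9e-05 for Lpl in liver. Leaving out an array, WAT gave -0.082 to 0.16 for Lpl and -2.32 to 0.60 for Pnpla3, with a ratio of 0.203 to 1.54 for the latter. Muscle gave -0.16 to 0.17 for Lpl, -0.77 to 0.44 for Lipe, -0.41 to 0.41 for Pnpla2, -0.63 to 0.39 for Pnpla3, -0.43 to 0.42 for Mgll, -0.66 to 0.49 for Ces1d, -1.03 to 0.41 for Angptl4 and -0.16 to 0.60 for Gpihbp1. Liver gave -0.14 to 0.14 for Lpl, -0.12 to 0.14 for Pnpla2, -0.65 to 0.81 for Pnpla3, -0.022 to 0.15 for Ces1d, -0.31 to 0.53 for Angptl4 and -0.065 to 0.047 for Gpihbp1. Mgll, muscle minus liver, ranged from -0.026 to 0.40. The cause of the turns under normalization, scaling or leaving out an array was not tested. Lipg in WAT and muscle and Pnpla3 in liver lie near the lower limit of 30, and Lpl in WAT and muscle near the top of the scale.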
